A study of Homo sapiens with 9 samples.

Results

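The genes described here encode 10 transcription factors and adaptors that work together in blood stem and progenitor cells: TAL1, LYL1, TCF3, LMO2, LDB1, GATA2, GATA1, ZFPM1, ERG and FLI1. They were found by gene symbol among 25680 symbols in RNA-seq counts from SKNO-1 cells, and all 10 were present and passed the filter on low counts. SKNO-1 cells come from an acute myeloid leukaemia with the AML1-ETO (RUNX1-RUNX1T1) fusion, and per the study's methods they were grown with the growth factor GM-CSF. The 9 samples formed 3 groups of 3: the control group labelled EV, and cells with either of a pair of short hairpin RNAs against ASXL2, labelled SH2 and SH3 and called shASXL2-2 and shASXL2-3 here. The labels do not spell out EV, and the study's text speaks of a control shRNA. Each group holds the sample numbers 1, 13 and 25, and the labels do not say what these stand for. The study calls the samples biological triplicates of this 1 cell line, so the p-values measure the spread between these samples only.

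In blood cells TAL1 or its paralogue LYL1, both basic helix-loop-helix proteins, pairs with an E protein such as TCF3 to bind DNA. LMO2, which has no DNA-binding domain, and the adaptor LDB1 bridge this pair to a GATA factor, so that the complex can sit on an E-box next to a GATA site. GATA2 is the GATA factor of stem and early progenitor cells, while GATA1, with its cofactor ZFPM1 (FOG1), works in red cell and platelet precursors. The ETS factors ERG and FLI1 bind many of the same stem-cell enhancers and are known to take part, with LYL1, LMO2 and RUNX1, in the complexes around AML1-ETO. ASXL2 is a chromatin protein related to the polycomb group.

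The GATA letters in the promoters of the paralogues TAL1 and LYL1 are shown because these are the pair of helix-loop-helix factors that can take the same place in the complex, and of the 8 windows searched for the 10 genes only theirs held these letters. RefSeq promoter sequences (build GRCh38.p14) were matched for 8 of the 10 genes, without LMO2 and FLI1, and the 250 bases before the gene start were searched on both strands. The GATA letters were AGATAA or TGATAA, which read TTATCT or TTATCA on the other strand, and capitals mark them. TAL1 is shown for chr1:47232336-47232585 and LYL1 for chr19:13102859-13103108, both from the minus strand and written 5′ to 3′ towards the gene.
TAL1: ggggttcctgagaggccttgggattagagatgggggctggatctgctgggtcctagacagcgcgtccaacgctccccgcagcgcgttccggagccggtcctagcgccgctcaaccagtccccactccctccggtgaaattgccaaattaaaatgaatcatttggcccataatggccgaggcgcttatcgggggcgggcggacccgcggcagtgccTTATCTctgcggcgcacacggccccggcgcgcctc
LYL1: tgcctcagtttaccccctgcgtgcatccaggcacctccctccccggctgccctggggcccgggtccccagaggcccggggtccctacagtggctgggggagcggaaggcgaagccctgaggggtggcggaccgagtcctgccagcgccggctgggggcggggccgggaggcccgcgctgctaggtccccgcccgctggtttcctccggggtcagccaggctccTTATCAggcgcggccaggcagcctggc
The first matching base lay at position -35 in TAL1 and at -27 in LYL1, where the first base of the gene counts as 0. The letters stood in 14.9% of 27305 such windows. The ETS letters AGGAAG, read on either strand, stood in 28.7% of all windows and, among the 8, in those of LDB1 and GATA1. The E-box letters CAGATG (12.2% of all windows) and the RUNX letters TGTGGT (10.9%) stood in none of the 8. The searched letters do not overlap each other in either printed window. A match of letters is a description and not evidence of binding.

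The libraries held 27714431 to 35406063 counts with 1 transcript per gene. ASXL2, the targeted gene, lay between 67.9 and 74.7 CPM (counts scaled to a common library size, with TMM normalization) in EV, between 30.4 and 36.2 in shASXL2-2 and between 26.9 and 41.1 in shASXL2-3, so every knockdown sample was below every EV sample. Of 7 genes fixed as markers of this cell line 6 passed the filter, among them MPO (6368 to 10240 CPM) and KIT, whereas CD34 had 2 to 10 counts per library. Markers of T cells, fibroblasts and epithelium summed to at most 0.192 CPM in any sample. Among B cell markers CD79B lay between 47.0 and 64.6 CPM and MS4A1 had no count. The summed B cell list was 56.3 to 63.3 CPM in EV, 56.6 to 67.5 in shASXL2-2 and 50.3 to 57.8 in shASXL2-3, and its part in the results was not tested. The first principal component of the tested genes took 52.9% of the variance and set the number 1 samples apart, with shASXL2-3 number 1 farthest (score -58.6, against -24.9 to 25.0 in the other 8).

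Measured per kilobase of transcript in EV, LYL1 was the most abundant of the 10 messages at 148 ± 10.9 CPM per kb (SD, n = 3), followed by LMO2 at 69.3 ± 5.93, GATA2 at 58.0 ± 1.80, FLI1 at 40.9 ± 7.84 and LDB1 at 36.2 ± 2.29. TCF3 came next at 24.4 ± 1.35 CPM per kb, then ERG at 17.7 ± 3.83, TAL1 at 11.6 ± 1.24, ZFPM1 at 2.80 ± 0.528 and GATA1 at 1.96 ± 0.141. Of these neighbours in rank only FLI1 and LDB1 overlapped over the 3 EV samples. The SKNO-1 cells therefore carried much more LYL1 than TAL1 message, and much more GATA2 than GATA1 message, per length. Lengths were those of the annotated main transcript, which need not be the isoform that was counted. The lowest count of any of the 10 genes was 49 reads, for GATA1, and its values are the least precise.

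**Figure D1:**
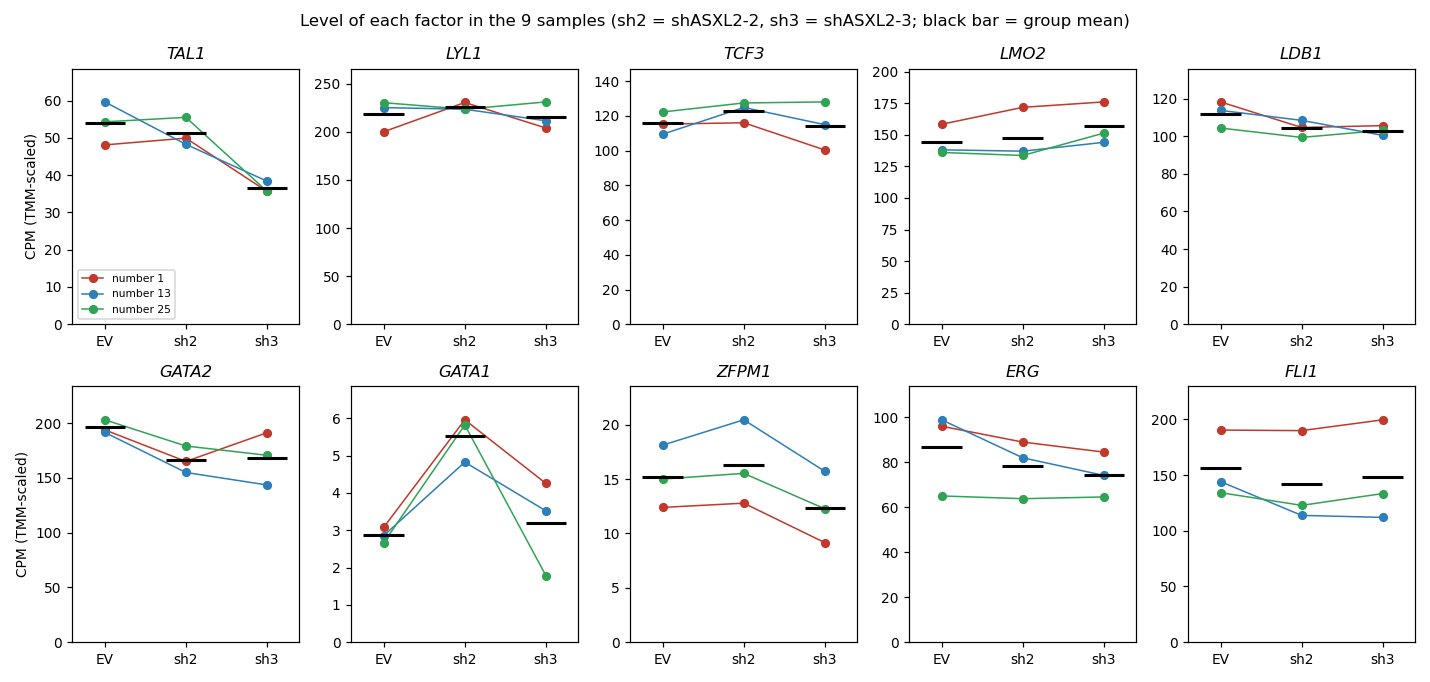
Level of each of the 10 genes in the 9 samples, as TMM-scaled CPM on a linear axis from 0. Points are samples, coloured and joined by sample number (1, 13 and 25), and black bars are group means. TAL1 lay at 35.7 to 38.4 CPM in shASXL2-3 and at 48.1 or more elsewhere, while LYL1 stayed between 200 and 231 CPM in all samples.

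The first question was whether any of these factors changed when ASXL2 was knocked down. With each group as 1 coefficient and no other term, edgeR's quasi-likelihood test with Benjamini-Hochberg adjustment called 0 of the 10 genes, and 0% of the 14199 tested genes, in each knockdown comparison. At an unadjusted p under 0.05 it gave 762 genes (5.37%) for shASXL2-2 and 723 (5.09%) for shASXL2-3, with 1 of the 10 genes in each (GATA1 and TAL1, respectively). DESeq2 called 25 and 26 genes in the same comparisons, or 0.199% and 0.183%, and of the 10 only TAL1 in shASXL2-3. Over both shRNAs it called 56 genes (0.447%) and between the shRNAs 11 (0.0775%), and none of the 10. The sample numbers were shared in the data: samples of the same number deviated together from their group means, so a fit with the number as a block was set beside the first. The blocked edgeR fit called 40 genes (0.282%) for shASXL2-2 and 59 (0.416%) for shASXL2-3, and of the 10 genes only TAL1 in shASXL2-3. It called 156 genes (1.1%) over both shRNAs and 15 (0.106%) between them, and none of the 10. DESeq2 with the block called 3.27% of genes for shASXL2-2, 4.04% for shASXL2-3, 4.96% over both and 1.24% between the shRNAs. Of the 10 it called GATA1 in the first of these comparisons and TAL1 in each of the other three. The comparisons with EV share the EV samples and are not independent of each other.

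TAL1 (hg19 chromosome 1, 47681962 to 47697897, minus strand), without which blood stem cells do not form, was at 48.1, 59.6 and 54.3 CPM in EV (numbers 1, 13 and 25). It was at 49.9, 48.3 and 55.5 CPM in shASXL2-2 and at 35.7, 38.4 and 35.7 CPM in shASXL2-3. All 3 shASXL2-3 samples were below all 6 others, whereas the EV and shASXL2-2 samples overlapped. Such a gap below EV was seen in 5.28% of tested genes, and below shASXL2-2 in 2.44%. The log2 fold change of shASXL2-3 against EV was -0.56 (SE 0.084, 0.679-fold, 95% interval -0.74 to -0.37) in the blocked fit, with an edgeR adjusted p of 0.0300, while without the block it was -0.56 with an adjusted p of 0.897. DESeq2 called it in both forms, with an adjusted p of 0.00566 without the block. For shASXL2-2 the difference from EV was -0.07 (95% interval -0.26 to 0.11). The difference of shASXL2-3 from shASXL2-2 was -0.49 (SE 0.084), with an edgeR adjusted p of 0.0744 in the blocked fit and of 0.998 without it, and DESeq2 with the block gave 0.00092. Averaged over both shRNAs TAL1 was -0.32 (SE 0.071, edgeR adjusted p 0.0653).

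The TAL1 call in shASXL2-3 was kept in some fits that left out samples and lost in others, while its size changed little. In the 9 blocked fits that each leave out 1 sample, the log2 fold change ran from -0.62 to -0.48 and the edgeR adjusted p from 0.0040 to 0.117. The call held in 2 of them, those without shASXL2-3 number 1 and without shASXL2-3 number 13. In the former 2.58% of all genes were called. The share is not given here for the latter, so that call is a description only. Fits that leave out 1 sample have fewer samples, and whether 1 library carried the result was not tested. Without number 1 in any group the value was -0.62 (edgeR adjusted p 0.0024), where 2.42% of all genes were called. That fit also called TAL1 over both shRNAs (adjusted p 0.0160, with 2.63% of genes) and between them (0.0185, with 0.916%). With all samples, and a correction for transcript length and GC content added to the block, the value for shASXL2-3 was -0.51 with an adjusted p of 0.0528. The 6 RefSeq transcripts of TAL1 share reads, with 12540 to 13032 counts each. Their mean differences by number, between -0.56 and -0.55, are therefore no independent support. An exon of TAL1 overlaps a long non-coding RNA on the opposite strand, and reads of the 2 genes cannot be told apart in unstranded libraries.

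LYL1 (hg19 chromosome 19, 13209847 to 13213975, minus strand), the paralogue of TAL1 with a closely related DNA-binding domain, was at 200, 225 and 230 CPM in EV, at 231, 223 and 223 CPM in shASXL2-2 and at 204, 212 and 231 CPM in shASXL2-3. The groups overlapped fully. In the blocked fit its difference from EV was 0.05 (95% interval -0.11 to 0.21) for shASXL2-2 and -0.02 (95% interval -0.18 to 0.14) for shASXL2-3. TCF3, the E protein that pairs with either, was at 110 to 122 CPM in EV, 116 to 127 CPM in shASXL2-2 and 100 to 128 CPM in shASXL2-3, again overlapping, with differences of 0.09 and -0.02.

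The log2 ratio of LYL1 to TAL1 counts within a sample does not depend on library scaling. It was 2.06, 1.92 and 2.09 in EV, 2.21, 2.21 and 2.01 in shASXL2-2, and 2.52, 2.46 and 2.70 in shASXL2-3. The shASXL2-3 samples were above all others. Over both shRNAs the ratio was higher by 0.33 on the log2 scale (two-sided exact permutation test over 84 splits, p = 0.0714, adjusted over 3 ratios 0.196), which did not pass. The smallest p this test allows is 0.0119.

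LMO2, the bridge of the complex, was at 158, 138 and 136 CPM in EV, 172, 137 and 134 CPM in shASXL2-2 and 176, 144 and 151 CPM in shASXL2-3. Each shASXL2-3 sample was above the EV sample of its number, by 0.06 to 0.15 on the log2 scale, but the groups overlapped and the difference of 0.12 did not pass (edgeR adjusted p 0.329 in the blocked fit). LDB1, the adaptor that lets these complexes meet over a distance, was at 118, 114 and 104 CPM in EV, 105, 108 and 99.3 CPM in shASXL2-2 and 106, 100 and 103 CPM in shASXL2-3. It was below the EV sample of its number in all 6 knockdown samples, as were GATA2 and ERG and 11.6% of tested genes. Its difference over both shRNAs was small at -0.11 (95% interval -0.24 to 0.01, edgeR adjusted p 0.288 with the block).

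GATA2 (hg19 chromosome 3, 128198270 to 128212044, minus strand), the stem-cell GATA factor, was at 194, 192 and 203 CPM in EV, 165, 155 and 179 CPM in shASXL2-2 and 191, 144 and 171 CPM in shASXL2-3. It was the only one of the 10 genes with all 6 knockdown samples below all 3 EV samples, a pattern seen in 2.61% of tested genes. The nearest pair were shASXL2-3 number 1 at 191 CPM and EV number 13 at 192 CPM. In the blocked fit the log2 fold change was -0.24 (SE 0.082) for shASXL2-2 and -0.23 (SE 0.082) for shASXL2-3, and over both shRNAs -0.23 (SE 0.071, 0.851-fold). None of these passed (edgeR adjusted p 0.171, 0.188 and 0.113, in that order, and at least 0.744 without the block). Over the 9 blocked fits that each leave out 1 sample the averaged value ran from -0.29 to -0.17 and the edgeR adjusted p from 0.0064 to 0.388. GATA2 was called in 1 of them, that without shASXL2-3 number 1, the library that stood apart, where 12.3% of all genes were called. In that fit it was also called against EV for each shRNA, among 11.2% and 2.58% of genes called. Without number 1 in any group the blocked fit called GATA2 over both shRNAs (-0.29, edgeR adjusted p 0.0186) and for shASXL2-3 (-0.335, adjusted p 0.0200). There 2.63% and 2.42% of all genes were called. It was not called for shASXL2-2 in that fit (-0.24, adjusted p 0.0946).

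GATA1 (hg19 chromosome X, 48644948 to 48652718, plus strand), which takes over from GATA2 in red cell and platelet precursors, was near the bottom of the range. It was at 3.08, 2.86 and 2.67 CPM in EV, 5.96, 4.83 and 5.82 CPM in shASXL2-2 and 4.26, 3.52 and 1.78 CPM in shASXL2-3. The shASXL2-2 samples were above all others, a gap above EV that 7.15% of tested genes showed, whereas the shASXL2-3 samples lay on both sides of EV. The log2 fold change for shASXL2-2 was 0.96 (SE 0.222, 1.94-fold), with an edgeR adjusted p of 0.0896 in the blocked fit and 0.808 without the block, and DESeq2 with the block gave 0.0127. Over the 9 blocked fits that leave out 1 sample it ran from 0.70 to 1.10 and the edgeR adjusted p from 0.0100 to 0.433. It was called in 1 of them, that without shASXL2-3 number 1, among 11.2% of all genes. Without number 1 in any group the value for shASXL2-2 was 0.95 (edgeR adjusted p 0.0494), where 1.9% of all genes were called. For shASXL2-3 the log2 fold change with all samples was 0.13 (95% interval -0.38 to 0.64). The difference between the shRNAs was -0.82 (SE 0.221, edgeR adjusted p 0.202 in the blocked fit).

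The log2 ratio of GATA1 to GATA2 counts was -5.98, -6.07 and -6.25 in EV, -4.79, -5.01 and -4.94 in shASXL2-2 and -5.49, -5.35 and -6.58 in shASXL2-3. It stayed far below 0 in every sample, and all shASXL2-2 samples were above the EV samples. Over both shRNAs it was higher by 0.74 (two-sided exact permutation test, p = 0.131, adjusted over 3 ratios 0.196).

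ZFPM1, the cofactor that binds GATA factors, was at 12.4, 18.1 and 15.01 CPM in EV, 12.8, 20.5 and 15.5 CPM in shASXL2-2 and 9.16, 15.7 and 12.3 CPM in shASXL2-3. The group ranges overlapped, but within each number the shASXL2-2 sample was the highest and the shASXL2-3 sample the lowest, and 0.866% of tested genes showed this order against the EV sample of the same number. That share leaves out genes with the reverse order. The difference from EV was 0.09 (95% interval -0.10 to 0.28) for shASXL2-2 and -0.31 (SE 0.089) for shASXL2-3, and neither passed (edgeR adjusted p 0.605 and 0.125 in the blocked fit). With the correction for length and GC content added to the block these values were 0.18 and -0.18 (adjusted p 0.443 and 0.405).

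Of the ETS factors, ERG was at 95.9, 98.8 and 65.0 CPM in EV, 88.9, 81.9 and 63.7 CPM in shASXL2-2 and 84.4, 74.1 and 64.5 CPM in shASXL2-3. The groups overlapped, since number 25 was the lowest in each, and over both shRNAs the difference was -0.17 (SE 0.067, edgeR adjusted p 0.190 with the block). ERG has 9 RefSeq transcripts here, which did not all move alike. NM_001243432 and NM_001291391 had mean differences of -0.33 and -0.34 by number for both shRNAs. The transcript with the most counts had -0.14 for shASXL2-2 and -0.20 for shASXL2-3. That with the fewest, NR_111949 (289 counts), had -0.15 and -0.54. NM_001243429 had -0.12 and -0.20, and the others were near the transcript with the most counts. FLI1 was at 190, 144 and 134 CPM in EV, 190, 114 and 123 CPM in shASXL2-2 and 200, 112 and 133 CPM in shASXL2-3, with differences of -0.16 and -0.10 from EV (edgeR adjusted p 0.335 and 0.540 with the block). The log2 ratio of FLI1 to ERG was 0.86 ± 0.275 in EV, 0.84 ± 0.324 in shASXL2-2 and 0.96 ± 0.331 in shASXL2-3 (SD, n = 3 each), and the difference of 0.04 was smaller than these spreads (exact permutation test, p = 0.762).

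**Figure D2:**
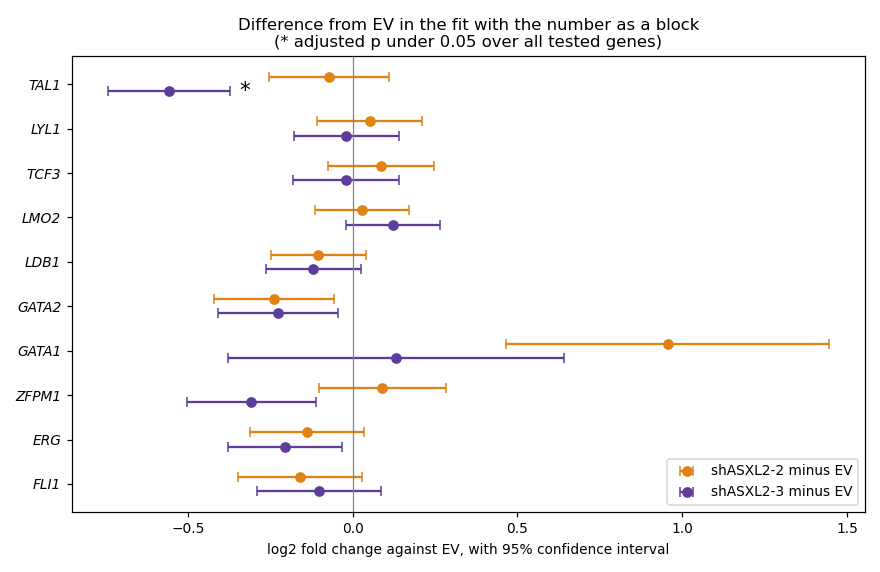
Log2 fold change of each gene against EV for shASXL2-2 (orange) and shASXL2-3 (purple), from the blocked edgeR fit, with 95% confidence intervals. The star marks the 1 value with an adjusted p under 0.05, TAL1 in shASXL2-3 at -0.56.

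Over the 10 genes the median log2 fold change in the blocked fit was -0.02 for shASXL2-2 and -0.11 for shASXL2-3, beside 0.01 for all tested genes in each. The median absolute change was 0.10 and 0.13, beside 0.13 and 0.13 over all tested genes. Apart from GATA1, whose interval reached 0.51 to either side, the blocked 95% intervals for the single shRNAs reached at most 0.20 on the log2 scale to either side. The exact permutation test of both shRNAs together against EV gave a two-sided unadjusted p of 0.0357 for GATA2 and 0.0476 for LDB1 over 84 splits, and p = 0.131 for TAL1, where 8.37% of 14183 genes with a count in every sample had an unadjusted p under 0.05. With splits within each number, where 27 are possible, GATA2, LDB1 and ERG each reached the smallest p this exact test allows, 0.0370, as did 12.8% of those genes.

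**Figure D3:**
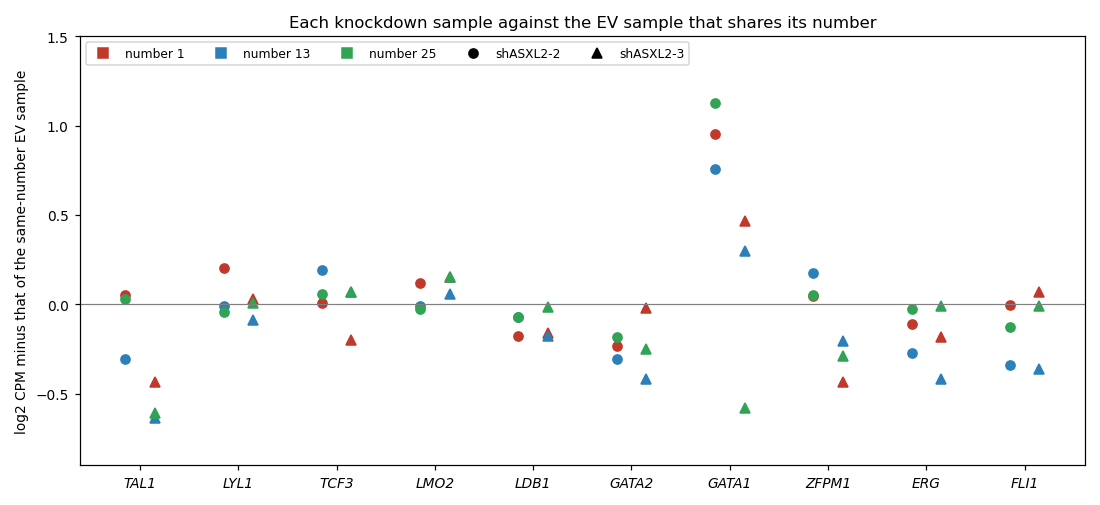
Difference in log2 CPM between each knockdown sample and the EV sample with its number, for shASXL2-2 (circles) and shASXL2-3 (triangles), coloured by number. LDB1, GATA2 and ERG lay below 0 in 6 of 6 samples, and TAL1 lay below 0 in 3 of 3 shASXL2-3 samples and in 1 of 3 shASXL2-2 samples.

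Some of these factors differed between the sample numbers. Number 1 against the mean of 13 and 25, in the blocked fit, called 4 of the 10 genes where 46.3% of all tested genes were called, and DESeq2 called 40.7%. FLI1 rose by 0.61 (SE 0.072, edgeR adjusted p 0.0003), LMO2 by 0.27 (SE 0.055, adjusted p 0.0035) and ERG by 0.28 (SE 0.067, adjusted p 0.0070), while ZFPM1 fell by 0.49 (SE 0.078, adjusted p 0.0011). Of all tested genes 24.1% were called higher and 22.2% lower in number 1. For FLI1 the 3 number 1 samples lay between 190 and 200 CPM and the other 6 between 112 and 144, and for LMO2 they lay at 158 or more and the others at 151 or less. A gap of this kind, with number 1 higher, was seen in 14.4% of tested genes. TAL1, GATA2, LDB1 and GATA1 were not called in this comparison, with values of -0.12, 0.09, 0.06 and 0.33. The correction for length and GC content turned those of GATA2 and LDB1 to -0.019 and -0.034. The 4 calls held in each of the 9 fits that leave out 1 sample, and that correction added LYL1 (-0.19) and TCF3 (-0.23). The 46.3% belongs to the fit with all samples and without that correction. Without shASXL2-3 number 1, 17.3% of all genes were called higher and 16.3% lower. The share is not given here for the other leave-one-out fits or with the correction, so those calls are a description only.

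**Figure D4:**
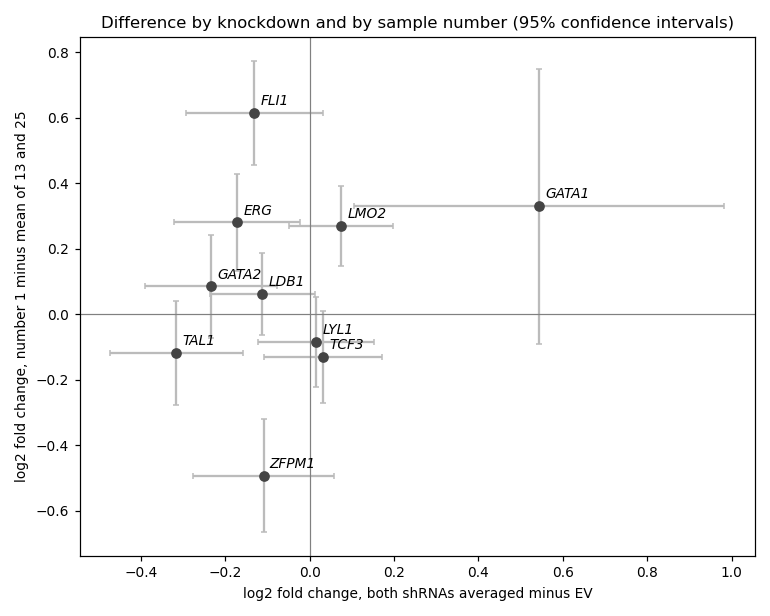
Log2 fold change of each gene between number 1 and the mean of numbers 13 and 25 (vertical) against that between both shRNAs and EV (horizontal), from the blocked fit with 95% confidence intervals. FLI1, LMO2 and ERG lie above 0 and ZFPM1 below 0 on the vertical axis with intervals that do not reach 0, while TAL1 lies at -0.32 on the horizontal axis.

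The wider machinery was read from a list of 39 partners and relatives, of which 29 passed the filter on low counts. In no knockdown comparison with EV was any of them called by edgeR, with or without the block; over both shRNAs 4 had an unadjusted p under 0.05 without the block (6.63% of all genes did), and DESeq2 with the block called 3 (ID3, CHD4 and EP300) among 4.96% of all genes. Without shASXL2-3 number 1 the blocked edgeR fit called 5 of them over both shRNAs, these 3 with RUNX1 and CBFA2T2, where 12.3% of all genes were called. Their median log2 fold change over both shRNAs was -0.01 in the blocked fit, beside 0.01 for all genes. Among 4 tested E proteins and inhibitors, ID3, which keeps E proteins from binding DNA, was at 0.880, 1.16 and 0.800 CPM in EV, 3.92, 1.79 and 3.19 CPM in shASXL2-2 and 2.32, 1.33 and 0.801 CPM in shASXL2-3. The shASXL2-2 samples were above EV without overlap, as in 7.15% of tested genes, and the difference over both shRNAs was 1.12 (SE 0.306, edgeR adjusted p 0.0917 with the block). TCF12, the most abundant E protein of the list at a mean of 294 CPM, differed by 0.01. TCF4, the other E protein, had at most 0.0340 CPM in any sample. LMO4, a relative of LMO2, is named after its values were seen. DESeq2 with the block called it for shASXL2-2 (among 3.27% of all genes) and between the shRNAs (among 1.24%). In the blocked edgeR fit these differences were 0.35 and -0.49 and did not pass (adjusted p 0.120 and 0.108).

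Among the 10 tested cofactors, the acetyltransferase EP300 was at 151, 150 and 139 CPM in EV, 94.2, 135 and 108 CPM in shASXL2-2 and 96.1, 113 and 126 CPM in shASXL2-3, so all knockdown samples were below EV, as in 2.61% of tested genes. The difference over both shRNAs was -0.40 (SE 0.092, edgeR adjusted p 0.0690 with the block). CHD4, the remodeller of the NuRD repressor complex, also had all 6 knockdown samples (336 to 438 CPM) below EV (441 to 467 CPM), a pattern of the same 2.61% of genes and by a narrow gap, with a difference of -0.26 (SE 0.074, adjusted p 0.103). GFI1, a repressor of stem and myeloid genes, differed by -0.11 (adjusted p 0.319). ZFPM2, the relative of ZFPM1, was at 1.03 to 1.71 CPM in EV and at 0.801 to 1.27 CPM in the knockdown samples, with a difference of -0.62 (SE 0.196, adjusted p 0.121).

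Of 32 genes listed as targets of these factors in red cells, megakaryocytes, mast cells and stem cells, 16 passed the filter. None was called in a knockdown comparison with EV by edgeR, with or without the block; 1 had an unadjusted p under 0.05 over both shRNAs without the block, and DESeq2 with the block called 1 (CDK6), beside 6.63% and 4.96% of all genes, so the targets' share was near that of all genes. Their median over both shRNAs was -0.00 in the blocked fit. CDK6, a cell-cycle kinase of progenitors, was at 822, 731 and 613 CPM in EV, 587, 605 and 533 CPM in shASXL2-2 and 548, 559 and 557 CPM in shASXL2-3. All 6 knockdown samples were below EV, as in 2.61% of tested genes, and the difference was -0.35 (SE 0.077, edgeR adjusted p 0.0631 with the block). MYB, a factor of immature blood cells, differed by -0.00 and TFRC, the transferrin receptor, by 0.02. Over both shRNAs ITGA2B and CPA3 were called by the blocked edgeR fit without the shASXL2-3 number 1 library but not with all samples. This pair of targets is named after their values were seen. Of the 3 tested megakaryocyte targets 1 was above 0 and 2 below over both shRNAs in the blocked fit, from -0.48 to 0.42. The 3 tested mast cell targets were also split into 1 above and 2 below, from -0.46 to 0.49. ITGA2B, the integrin of megakaryocytes and platelets, was at 107, 109 and 98.0 CPM in EV, 69.2, 55.7 and 68.4 CPM in shASXL2-2 and 144, 61.9 and 73.4 CPM in shASXL2-3. CPA3, a mast cell protease, was at 31.5, 36.8 and 26.8 CPM in EV, 22.4, 19.6 and 19.6 CPM in shASXL2-2 and 47.3, 20.4 and 15.95 CPM in shASXL2-3. In both genes 5 of 6 knockdown samples were below all EV samples and shASXL2-3 number 1 was the highest of all 9. With all samples the differences over both shRNAs were -0.48 and -0.46 (edgeR adjusted p 0.141 and 0.242 with the block), and without that library -0.66 (SE 0.071) and -0.70 (SE 0.079), each with an adjusted p of 0.00052, where 12.3% of all genes were called. Without number 1 in any group they were -0.68 and -0.74 (adjusted p 0.00076 and 0.00078), where 2.63% of all genes were called. CDK6 was called without that library (-0.32, adjusted p 0.0139) but not without number 1 in any group (-0.25, adjusted p 0.0545).

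The red cell genes HBB and HBG1, the platelet gene PF4 and the stem-cell factor MEIS1 had no count in any sample, below a floor of 3 counts or at most 0.108 CPM.

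By number, in number 1 against 13 and 25, 9 of the 16 tested targets were called higher and 0 lower, and of 29 partners 4 were called higher and 3 lower, beside 24.1% of all genes called higher and 22.2% lower. The difference between the lists was not tested. The 9 were NFE2, EPOR, ITGA2B, VWF, KIT, MYB, HHEX, CPA3 and HDC, named here after their values were seen. Without shASXL2-3 number 1, the library that stood apart, 7 of the 16 targets were called higher and 0 lower, and 3 partners higher and 3 lower, beside 17.3% and 16.3% of all genes. The target calls lost were those of ITGA2B and CPA3. VWF was called with and without that library, which had 3.64 CPM of it against 0.291 to 0.963 in the other 8 samples.

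**Figure D5:**
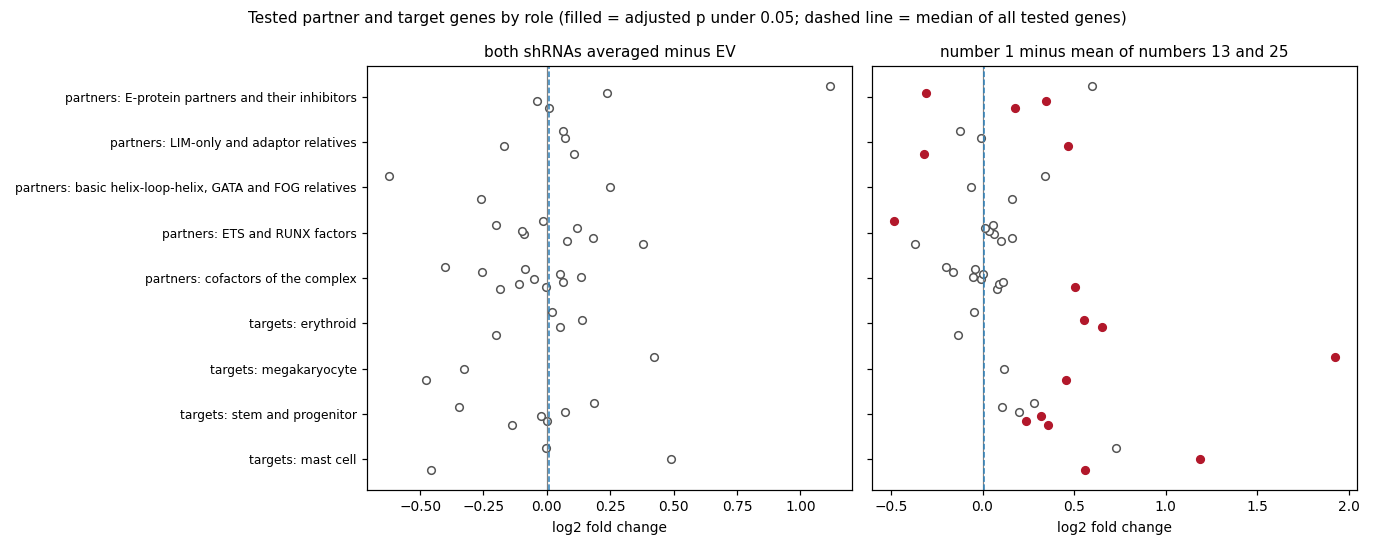
Log2 fold change of the 29 tested partners and 16 tested targets by role, for both shRNAs against EV (left) and for number 1 against the mean of 13 and 25 (right), from the blocked fit. Each point is a gene, filled points have an adjusted p under 0.05, and the dashed line is the median of all tested genes. No point is filled on the left, and 16 are filled on the right, 9 of them targets.

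After the mean of each number was subtracted, the genes whose log2 CPM followed TAL1 most closely over the 9 samples were LPCAT1 (Pearson r 0.970), UBTD1 (0.963) and CIPC (0.954), out of 9460 genes with a mean of at least 10 CPM. These samples share 3 groups and 3 numbers, and r is given as a description only. Of the other members ZFPM1 came closest (r 0.828, rank 140) and LMO2 ran the other way (r -0.795), while LYL1 had an r of 0.334. GATA1 was below the level needed for this comparison. In a cell line sequenced in bulk, fewer cells with a message and less of it per cell cannot be told apart.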

How the data were processed

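RNA-seq counts from 9 SKNO-1 samples were used: EV, shASXL2-2 and shASXL2-3 with 3 samples each. The deposited values are whole-number counts per RefSeq transcript on hg19, not normalized; the submitters' processing notes name STAR, featureCounts and DESeq2, and the authors describe unstranded poly(A) libraries. The extraction label describes mouse bone marrow; it was set aside in favour of the stated cell line. Isoform rows share reads, so 1 row per symbol, that with most counts over the 9 samples, was kept. Counts were tested with edgeR 4.0.16 in R 4.3.3 (quasi-likelihood F test, filterByExpr with minimum count 10, minimum total 15, TMM, 14199 genes, Benjamini-Hochberg adjustment, threshold 0.05), with 1 coefficient per group, and again with the sample number as a block. DESeq2 1.42.0 was an alternative. Same-number samples in different groups correlated in their deviations from the group means (mean 0.598, lowest 0.398 over 9 pairs), so the numbers pair the samples; the pairing comes from the numbers in the sample titles. Replicates differed by more than sampling noise (chi-square per degree of freedom 17.6 to 128). Totals were 27714431 to 35406063 counts. The floor of 3 counts covers counting error only, as reads carry no molecular identifiers. The 95% intervals on log2 fold changes come from the edgeR fits and include the spread between samples. Lengths came from GENCODE on GRCh37, for 94.8% of tested genes, and promoters from RefSeq on GRCh38.p14. Scripts were tested on simulated data. Members and lists were chosen with earlier results of these data known. Named genes were all members, the 3 genes most like TAL1, and listed partners and targets that met a rule. They had to be called by edgeR with all samples in a knockdown comparison or be among the 3 most abundant of their list. An unadjusted p under 0.05 over both shRNAs without the block also sufficed. Other genes named in the text fall outside this rule.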

Additional observations from a re-analysis of the deposited data

Results flagged for a closer look

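ZFPM1 differed from EV with opposite signs under the hairpins in every number, but by little in shASXL2-2. Against the EV sample of the same number it was higher by 0.04, 0.17 and 0.05 on the log2 scale in shASXL2-2 (numbers 1, 13 and 25), and in shASXL2-3 the differences were -0.44, -0.21 and -0.29. In the blocked fit the 95% interval for shASXL2-2 against EV was -0.10 to 0.28, which spans 0. The difference of shASXL2-3 from shASXL2-2 was -0.40 (SE 0.089) in the blocked fit, and the test of that difference did not pass (edgeR adjusted p 0.136, and 0.998 without the block). The same order, above the EV sample of the same number in all shASXL2-2 and below it in all shASXL2-3 samples, was seen in 0.866% of tested genes. That share leaves out genes with the reverse order. The RefSeq row of ZFPM1 is the only one in the files, and its lowest level was 9.16 CPM.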

How the results depend on the processing

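With the replicate block the members called went from 0 to 1 for shASXL2-3 against EV, which was TAL1, and the block changed no other call among members and lists. The share of all genes called for shASXL2-3 went from 0% to 0.416% with the block. The count of members for shASXL2-3 was also 1 with DESeq2, beside 0.183% of all genes. It was 1 in the block with DESeq2 size factors, with genes of known length, with the mean over RefSeq rows or with no low-count filter. DESeq2 with the replicate block called 1 member in each of the 4 knockdown comparisons, and 2, 1 and 3 partners and 1, 1 and 1 targets against EV (shASXL2-2, shASXL2-3 and both averaged). Of all genes DESeq2 with the block called 3.27%, 4.04% and 4.96% in these comparisons with EV and 1.24% between the shRNAs. The replicate block with no low-count filter called 1 member for shASXL2-2, 1 for both averaged and 2 between the shRNAs. For the fits with changed size factors, gene set, rows or filter the share of all genes called is not given here. Their counts of members are a description only. Without replicate 1 of every group the block called 1, 2, 2 and 1 members (shASXL2-2, shASXL2-3, both averaged, and between shRNAs). Beside these stood 1.9%, 2.42%, 2.63% and 0.916% of all genes, in that order. That fit also called 1 partner, LMO4, for shASXL2-2 and between the shRNAs, and 2, 2 and 2 targets against EV. Leaving out single samples in the block gave 0 to 2 members called against EV for each shRNA and for both averaged, and 0 to 1 between the shRNAs. The members called were TAL1, GATA2 and GATA1, and a count of 2 was reached only without shASXL2-3 replicate 1. Among these fits the share of all genes called is given here only for that one, so the other counts are a description only. Without shASXL2-3 replicate 1 the block called 7, 0 and 5 partners and 3, 2 and 3 targets against EV, beside 11.2%, 2.58% and 12.3% of all genes. The alternatives with the replicate block other than the block itself, DESeq2 with it and the length and GC correction were chosen after seeing the data.

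Small values changed sign when 1 sample was left out, without the block, and none of them was called. For shASXL2-2 the ranges were -0.153 to 0.002 for TAL1, -0.012 to 0.088 for LYL1, -0.091 to 0.106 for LMO2, -0.096 to 0.248 for ZFPM1 and -0.401 to 0.031 for FLI1. For shASXL2-3 they were -0.079 to 0.026 for LYL1, -0.100 to 0.067 for TCF3, -0.110 to 0.439 for GATA1 and -0.354 to 0.093 for FLI1. For both averaged they were -0.046 to 0.057 for LYL1, -0.006 to 0.081 for TCF3, -0.223 to 0.052 for ZFPM1 and -0.248 to 0.062 for FLI1. Between the shRNAs they were -0.035 to 0.020 for LDB1, -0.086 to 0.124 for GATA2, -0.184 to 0.030 for ERG and -0.214 to 0.326 for FLI1. The length and GC correction with the replicate block gave 0.001 for TAL1 and -0.015 for LYL1 in shASXL2-2, 0.048 for TCF3 in shASXL2-3, -0.027 for LYL1 over both, and -0.012 for GATA2 between the shRNAs. Leave-one-out ranges of the log2 ratios were 0.62 to 0.98 for GATA1 to GATA2, 0.26 to 0.40 for LYL1 to TAL1 and -0.12 to 0.13 for FLI1 to ERG; an exact permutation p under 0.05 was reached without shASXL2-3 replicate 25 for the first (0.98, p = 0.0179) and without shASXL2-2 replicate 25 for the second (0.40, p = 0.0357). The cause of these changes was not tested. Counts as low as 49 for GATA1 limit its precision.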
